A study of Rattus norvegicus with 42 samples.

Results

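Claudins are membrane proteins that polymerise into the strands of tight junctions, and the claudins a cell makes decide whether ions and water can pass between it and its neighbours. Occludin joins the same strands, and the zonula occludens scaffold encoded by Tjp1 ties them to actin. Claudin choice is known to follow cell type: Cldn1 and Cldn2 in hepatocytes, Cldn5 in endothelium, Cldn11 in the myelin of oligodendrocytes and Cldn18 in alveolar epithelium. Levels of 10 genes of this system (Cldn1, Cldn2, Cldn3, Cldn4, Cldn5, Cldn7, Cldn11, Cldn18, Ocln and Tjp1) were followed here in rat liver, brain and lung. A probe set was taken when the platform annotation gave it 1 of these symbols and no other, which left 17 of 31042 probe sets, for 10 of 14217 annotated genes. Cldn1 and Cldn18 had 3 probe sets each, Cldn11, Ocln and Tjp1 had 2, and the other 5 genes had 1.

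RNA of the 3 organs of 1 untreated rat, from animals given as 9 to 12 weeks old, was labelled and hybridised to Affymetrix arrays. The series was made to test how well statistical deconvolution recovers tissue shares, so labelled cRNA was also mixed before hybridisation. There were 42 arrays in 14 groups of 3: pure liver, pure brain, pure lung and 11 mixtures, named below by their percentages of liver, brain and lung, from 5/25/70 to 65/34/1. The 3 arrays of a group are technical replicates, so p-values measure the spread between arrays and say nothing of other animals, and 3 arrays limit the precision of each mean. The labels name no brain region or lung lobe. No strain, sex or genotype was used here.

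The tissues matched their labels by hepatocyte, neuron, oligodendrocyte and alveolar type 2 marker genes, and only in part by astrocyte markers. All 5 measured hepatocyte markers were called higher in liver than in both other tissues, as were 3 of 3 neuron and 7 of 7 oligodendrocyte markers in brain and 7 of 7 alveolar type 2 markers in lung. Of 4 astrocyte markers 2 were called higher in brain (Gfap and Aqp4). Aldh1l1 was called higher in liver, at 11.32 there and 7.30 in brain. Slc1a2 passed in no tissue, at 6.67 in liver and 6.05 in brain. Brain RNA also held Alb at a log2 level of 12.21 and Ttr, a choroid plexus and liver product, at 13.09, against 5.07 and 4.51 in lung. Array medians lay between 5.48 and 5.83. The hybridisation control bioB averaged 8.48 in liver, 7.62 in brain and 7.55 in lung, and 1 of the arrays of 60/35/5 reached 9.35, where the other 10 mixtures lay between 7.43 and 8.17. In whole tissue, fewer cells of a type and less RNA per cell cannot be told apart.

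Each tissue had its own claudins. The leading probe set of a gene is the one with the highest mean over all arrays. A gene is called tissue-enriched where that probe set exceeded each of the other tissues by 2-fold or more, with an adjusted p under 0.05 in limma (Benjamini-Hochberg over all probe sets). By that measure Cldn1 and Cldn2 were liver-enriched, Cldn11 was brain-enriched, and Cldn4, Cldn5, Cldn7, Cldn18 and Tjp1 were lung-enriched, while Cldn3 and Ocln were shared between tissues. Thus 8 of 10 members were enriched in a tissue, against 32.8% of all genes, with 5 in lung against 11.5%, 2 in liver against 9.61% and 1 in brain against 11.7%. Of the 17 probe sets 13 were enriched, against 27.7% of all probe sets. Of these 13, 4 were enriched in liver (7.28% of all), 2 in brain (11.5%) and 7 in lung (8.95%). The median lead of the highest tissue over the next was 3.43 on the log2 scale for the members and 0.52 for all probe sets. The members were chosen with earlier results of these data known. Shares over all genes or probe sets, here and below, therefore give scale and are no test of the members.

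**Figure D1:**
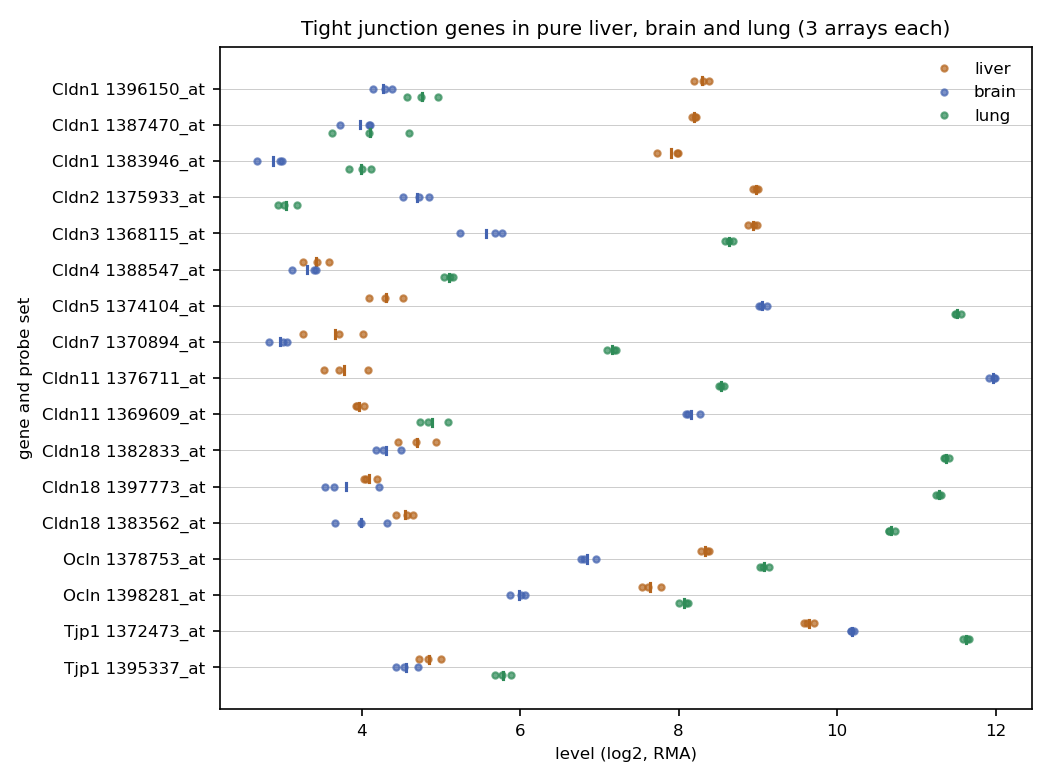
Log2 levels of the 17 probe sets (vertical axis) on the 9 pure arrays, 3 per tissue, with a bar at each mean. Cldn18 sits above 11 in lung on its leading probe set and below 5 elsewhere, Cldn11 sits near 12 in brain, and the Cldn3 arrays of liver and lung lie close together at 8.59 to 8.98.

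The upstream bases of 4 of these genes are shown as examples from each tissue, chosen after their levels were known among members with a RefSeq entry: Cldn1 (liver), Cldn11 (brain), Cldn5 (lung, then brain) and Cldn18 (lung). They are the 250 bases before the RefSeq start site on GRCr8, at chr11:87926126-87926375 (plus strand), chr2:114149540-114149789 (minus), chr11:95718599-95718848 (minus) and chr8:109144620-109144869 (minus) in that order, each printed 5′ to 3′ on the gene's strand. Capitals mark any of 7 motifs found on either strand: the TATA box TATAAA, the GC box GGGCGG, the CCAAT box, the Nkx2-1 core CAAGTG, the forkhead core TGTTTAC, the Sox core ACAAAG and CACCTG, an E-box of the Snail and ZEB type.
Cldn1: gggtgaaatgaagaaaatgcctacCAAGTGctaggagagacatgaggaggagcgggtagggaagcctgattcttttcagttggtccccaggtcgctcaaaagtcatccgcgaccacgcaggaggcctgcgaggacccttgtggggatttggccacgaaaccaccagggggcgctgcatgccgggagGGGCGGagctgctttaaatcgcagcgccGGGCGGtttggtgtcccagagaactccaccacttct
Cldn11: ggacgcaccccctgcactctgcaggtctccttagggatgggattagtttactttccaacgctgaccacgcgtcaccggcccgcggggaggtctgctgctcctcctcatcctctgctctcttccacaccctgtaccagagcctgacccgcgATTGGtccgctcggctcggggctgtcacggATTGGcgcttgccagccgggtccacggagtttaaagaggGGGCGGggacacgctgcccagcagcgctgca
Cldn5: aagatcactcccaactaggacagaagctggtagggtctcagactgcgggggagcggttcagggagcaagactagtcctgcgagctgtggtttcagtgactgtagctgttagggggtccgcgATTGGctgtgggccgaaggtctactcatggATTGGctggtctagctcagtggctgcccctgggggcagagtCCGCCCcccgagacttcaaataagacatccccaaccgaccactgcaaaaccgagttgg
Cldn18: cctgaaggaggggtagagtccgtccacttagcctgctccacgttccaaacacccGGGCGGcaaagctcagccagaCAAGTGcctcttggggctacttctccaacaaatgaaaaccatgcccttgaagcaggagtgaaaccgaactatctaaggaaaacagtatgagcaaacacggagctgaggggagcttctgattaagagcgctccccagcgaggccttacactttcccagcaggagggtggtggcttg
Cldn1 held GGGCGG at 64 and 36 bases before the start and CAAGTG at 226. Cldn18 held GGGCGG at 196 and CAAGTG at 175, while Cldn5 and Cldn11 each held 2 CCAAT boxes, reading ATTGG here, and 1 GC box. The TATA box, the forkhead and Sox cores and the E-box were not among these letters in any of the 4 windows. Over all 33469 RefSeq promoters of the same length GGGCGG occurred in 30.5%, CCAAT in 34.0%, CAAGTG in 11.7%, TATAAA in 12.9%, TGTTTAC in 3.21%, ACAAAG in 16.3% and CACCTG in 15.9%, and a match describes letters only. The 4 windows held 14, 19, 10 and 8 CG pairs in the order of the genes above, where the median promoter held 5.0. An entry was matched for 8 of the 10 members; Cldn2 and Cldn4 had none.

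Liver was marked by Cldn1, a sealing claudin also known as a hepatitis C virus entry factor, and Cldn2, which forms a pore for cations and water. On its leading probe set (1396150_at) Cldn1 measured 8.20, 8.30 and 8.38 on the liver arrays, 4.29, 4.39 and 4.15 in brain, and 4.75, 4.97 and 4.57 in lung. All 3 liver arrays stood far above the other 6, and lung lay a little above brain. Cldn1 was 11.6-fold higher in liver than in lung (log2 difference 3.53 ± 0.08, SE, adjusted p = 8.23e-30) and 16.2-fold higher than in brain. The other probe sets, 1387470_at and 1383946_at, put liver 17.1-fold and 15.1-fold above lung. They differed on the low tissues: 1383946_at called lung above brain, whereas 1387470_at gave brain minus lung as -0.13 ± 0.13 (adjusted p = 0.386). Brain on 1383946_at averaged 2.88, within the 2.43 to 3.09 of dap, a bacterial transcript used as a control, so that no fold is given for it.

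Cldn2 measured 8.98, 9.01 and 8.94 in liver, 4.53, 4.73 and 4.85 in brain and 3.02, 3.18 and 2.95 in lung. The 3 tissues did not overlap, and lung lay at the level of the dap control. Liver exceeded brain 19.3-fold (4.27 ± 0.08, adjusted p = 1.09e-32) and brain exceeded lung by 1.65 ± 0.08 on the log2 scale (adjusted p = 3.08e-20). With lung at the control level, the measured ratios over lung, 60.8 for liver and 3.14 for brain, are lower bounds. Beside that difference, the summed linear level of the 5 hepatocyte markers was 4914 to 5032 in brain and 364 to 398 in lung. Alb made most of the brain sum, and 3 of the 5 markers had lower means in brain than in lung (Cyp2e1 6.32 against 7.62, Serpina1 6.72 against 6.96 and Tat 3.47 against 3.60). The 5 measured choroid plexus markers summed to 8692 to 9166 in brain, mostly Ttr, and to 84.9 to 94.5 in lung. Of that list Otx2 and Folr1 were brain-enriched. Ttr and Kcnj13 were highest in liver, Kcnj13 with 5.29 there, 4.74 in brain and 4.66 in lung, and Kl was low throughout, at 3.24 in brain and 3.45 in lung. The part of either cell type in the brain level of Cldn2 was not tested.

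Brain was marked by Cldn11, the claudin of the strands between myelin layers. Its leading probe set (1376711_at) measured 11.92, 11.99 and 11.98 in brain, 8.51, 8.57 and 8.53 in lung and 3.72, 4.08 and 3.53 in liver. The tissues were fully separated, with lung in the middle. Brain exceeded lung 10.8-fold (3.43 ± 0.07, adjusted p = 2.08e-30) and liver 292-fold. The second probe set (1369609_at) gave nearly the same ratio of brain to lung, 9.64-fold, but put lung only 1.90-fold above liver (0.92 ± 0.08), where 1376711_at gave 27.2-fold. Brain over liver was 18.3-fold on it, against 292-fold on 1376711_at. Thus the probe sets gave similar ratios of brain to lung and differed in how far both stand above liver. Liver was dim on both, at 3.77 on 1376711_at and 3.97 on 1369609_at, where dap reached 3.09. Whether such low levels limit the folds over liver was not tested. Beside the lung level of 1376711_at, the 7 oligodendrocyte markers summed to 402 to 427 in lung, 234 to 259 in liver and 22538 to 23332 in brain. Mobp, a myelin protein gene, was at 2.65 in lung and Mbp at 4.33, against 12.35 and 13.71 in brain. Most of the lung sum came from Cnp (7.86 in lung, 7.08 in liver) and Mal (6.89 and 4.85). The part of these cells in the lung level was not tested.

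Lung had the most members. Cldn18, whose lung form lines alveolar epithelium, measured 11.41, 11.35 and 11.36 in lung on probe set 1382833_at, 4.94, 4.46 and 4.69 in liver and 4.49, 4.27 and 4.18 in brain. Liver and brain arrays overlapped and lung stood far above both. Lung exceeded liver 102-fold (6.68 ± 0.08, adjusted p = 1.44e-37) and brain 134-fold, and 1397773_at and 1383562_at gave 146-fold and 70.0-fold over liver.

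Cldn5, the claudin that seals the blood-brain barrier, was high in 2 of the 3 tissues. It measured 11.49, 11.57 and 11.51 in lung, 9.02, 9.12 and 9.03 in brain and 4.30, 4.53 and 4.09 in liver. Each tissue formed a tight cluster of its own. Lung exceeded brain 5.52-fold (2.46 ± 0.06, adjusted p = 1.02e-27), and brain exceeded liver 26.9-fold (4.75 ± 0.06, adjusted p = 1.98e-36). The 8 measured general endothelial markers were all lung-enriched and summed to 12972 to 13100 in lung, 2047 to 2187 in liver and 762 to 780 in brain. Of 5 brain endothelium markers, Slco1c1, a thyroid hormone transporter, led in brain by 34.9-fold over its next tissue and Slc2a1, the barrier's glucose transporter, by 2.91-fold. Slco1a4 and Mfsd2a of the same list were liver-enriched, and Abcb1a passed in no tissue. Of the general list, Vwf (10.69 in lung, 7.16 in brain, 6.01 in liver) and Ramp2 (11.18, 7.57 and 6.53) had the tissue order of Cldn5. The other 6 were higher in liver than in brain, among them Kdr at 9.98 against 7.10, which carried much of the liver sum. The part of endothelium in the Cldn5 levels was not tested.

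Cldn7 and Cldn4, claudins of many lining epithelia, were also highest in lung. Cldn7 measured 7.19, 7.21 and 7.10 in lung, 4.02, 3.71 and 3.27 in liver and 3.06, 2.83 and 3.01 in brain. Lung was clear of both other tissues, and exceeded liver 11.3-fold (3.50 ± 0.14, adjusted p = 2.92e-22). Cldn4 was dim everywhere, at 5.04, 5.15 and 5.11 in lung, 3.44, 3.26 and 3.58 in liver and 3.43, 3.12 and 3.40 in brain. Liver and brain arrays overlapped near the control level, and lung was 3.19-fold above liver (1.67 ± 0.11, adjusted p = 3.48e-16). Of 5 ductal epithelium markers, 4 were lung-enriched (Krt19, Krt7, Epcam and Cftr), and the list summed to 3651 to 3831 in lung, 313 to 366 in liver and 360 to 381 in brain. The fifth, Spp1, was brain-enriched, at 8.30 in brain, 7.08 in lung and 6.89 in liver, and made most of the brain sum. The part of airway and alveolar epithelium in the lung levels was not tested. The 4 measured alveolar type 1 markers were all lung-enriched, as were 3 of 6 airway markers and 1 of 2 mesothelium markers.

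Cldn3, a sealing claudin, was shared by liver and lung. It measured 8.98, 8.95 and 8.88 in liver, 8.59, 8.64 and 8.69 in lung and 5.69, 5.77 and 5.25 in brain. Liver was above lung on every array, but by only 1.23-fold (0.30 ± 0.08, adjusted p = 0.00106), and both were far above brain, liver 10.3-fold and lung 8.39-fold. When arrays were shifted by a curve through the hybridisation controls the order of liver and lung turned, with liver minus lung at -0.57 (adjusted p = 0.0279). RefSeq places Cldn3 and Cldn4 next to each other on chromosome 12 with 0 protein-coding genes between them. In liver, where Cldn3 was about as high as in lung, Cldn4 was near the control level.

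Ocln, the strand protein found in most epithelia, was not enriched in any 1 tissue. Its leading probe set (1378753_at) measured 9.07, 9.03 and 9.14 in lung, 8.28, 8.35 and 8.39 in liver and 6.77, 6.96 and 6.80 in brain. The order lung, liver, brain held on every array. Lung exceeded brain 4.72-fold (2.24 ± 0.06, adjusted p = 5.69e-27) but liver only 1.67-fold (0.74 ± 0.06, adjusted p = 3.64e-13), under the 2-fold limit. The second probe set gave 1.34-fold over liver. With the control curve both passed 2-fold, at 1.70 and 1.38 on the log2 scale.

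Tjp1 was abundant in all 3 tissues. Probe set 1372473_at measured 11.67, 11.64 and 11.59 in lung, 10.18, 10.18 and 10.21 in brain and 9.62, 9.71 and 9.59 in liver. No tissues overlapped. Lung exceeded brain 2.72-fold (1.44 ± 0.05, adjusted p = 5.03e-24) and liver 3.97-fold. A second, dim probe set (1395337_at) read 5.88, 5.69 and 5.78 in lung, 5.00, 4.72 and 4.84 in liver and 4.54, 4.72 and 4.43 in brain. There lung was 1.90-fold above liver and so not called, though leaving out 1 liver array (replicate 1) brought the difference to 1.00 and over the limit. The probe sets also put liver and brain in opposite order, 1.46-fold higher in brain on 1372473_at and 1.22-fold higher in liver on 1395337_at (adjusted p = 0.0966).

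By tissue pair, 10 of 17 probe sets were called between liver and brain (33.5% of all probe sets), 7 higher in liver (14.6% of all) and 3 in brain (18.9%). Between liver and lung 12 were called (28% of all), 4 higher in liver (10.8% of all) and 8 in lung (17.2%). Between brain and lung 15 were called (31% of all), 3 higher in brain and 12 in lung. These comparisons share their arrays pairwise. For brain against lung, 12 of 17 higher in lung stood beside 15.9% of all probe sets, and 3 of 17 higher in brain beside 15%.

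Of 46 other junction genes measured in 5 lists, 18 were enriched in a tissue, near the 32.8% of all genes. Of these, 12 were enriched in lung (11.5% of all genes), 3 in liver (9.61%) and 3 in brain (11.7%), and 28 genes were in none of these classes. Their median lead was 0.88, against 0.59 for all genes. Among 9 other claudins, Cldn14 was 10.7-fold higher in liver than in the next tissue, Cldn8 7.59-fold in lung and Cldn10 2.07-fold in brain, and 6 passed in no tissue. The Cldn10 lead was 0.95 with the control curve, under the 2-fold limit. Of 10 tight junction membrane proteins 5 were enriched: Ildr2 was 36.6-fold higher in brain, the endothelial adhesion molecule Esam 6.71-fold and Jam2 2.89-fold in lung, and Igsf5 3.40-fold and the tricellular junction protein Lsr in liver. With the 5th percentile of each array subtracted 8 of these 10 passed.

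Of 10 plaque, polarity and adherens genes that passed, 9 were lung-enriched, where 1635 of the 4670 enriched genes of the series were. Of 11 plaque genes 3 were lung-enriched (Amotl1 4.66-fold, Magi3 3.42-fold and Afdn 3.06-fold) and 8 passed in no tissue. Of 9 polarity genes Pard6g was 5.98-fold, Pard6b 4.60-fold and the kinase Prkci 2.13-fold higher in lung, Prkcz was 2.52-fold higher in brain, and 5 passed in no tissue. The control curve raised the polarity count to 7, and array centring took Prkci below the limit, to 0.84. Of 7 adherens genes Jup, the plakoglobin gene, was 3.58-fold, the catenin gene Ctnna1 3.31-fold and Nectin2 2.27-fold higher in lung. The other 4 passed in no tissue. Nectin2 fell below the limit with array centring (0.93) and with repeated quantile normalization (0.87).

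**Figure D2:**
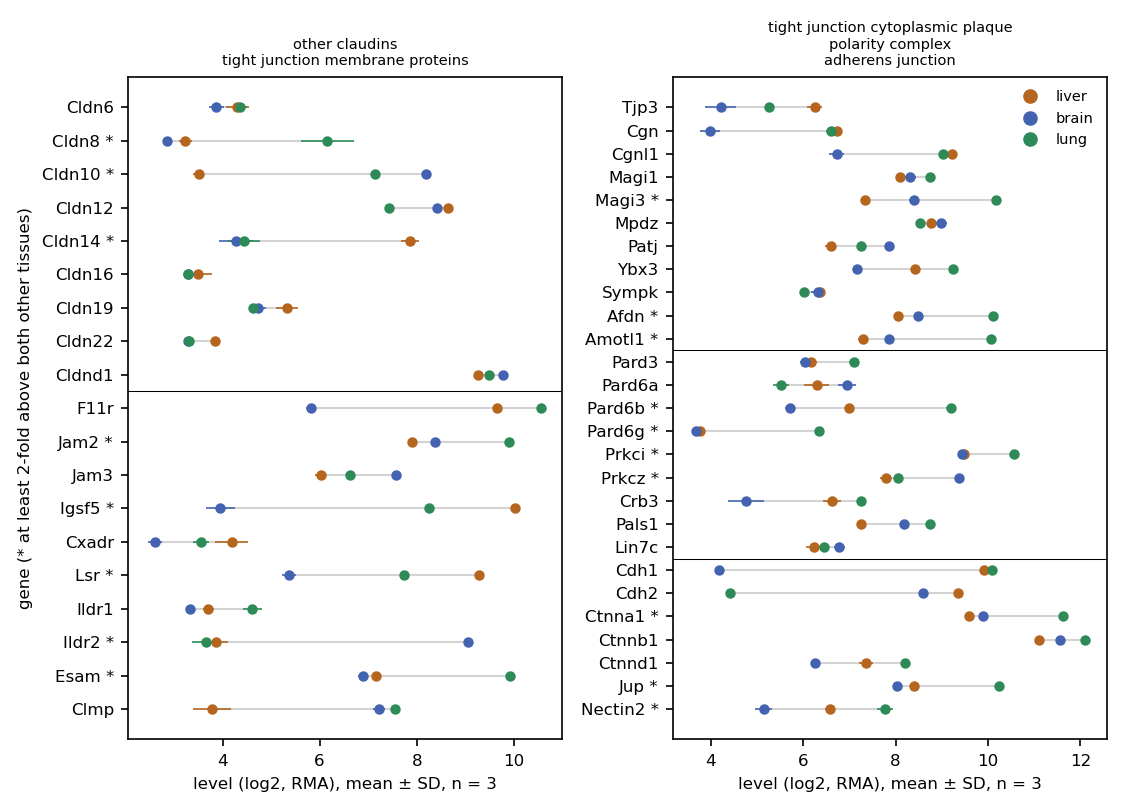
Log2 levels (mean ± SD, 3 arrays) in liver, brain and lung of the 46 other junction genes, by list, with an asterisk on the 18 that were at least 2-fold above both other tissues. Ildr2 is far to the right in brain alone, and Magi1, Mpdz and Sympk are among the genes whose 3 tissues lie close together.

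In mixtures, most members rose and fell with the share of their tissue, and some were also called where that share was equal. Each pair below was tested in the same limma model with no fold limit, and 3 of the 4 pairs share the 70/25/5 arrays. When liver was exchanged for lung (5/25/70 against 70/25/5), 15 of 17 probe sets were called (61.3% of all), 10 higher in 5/25/70 (30.6% of all) and 5 lower (30.7%). Cldn18 (1382833_at) measured 10.70, 10.73 and 10.81 in 5/25/70 and 7.55, 7.65 and 7.63 in 70/25/5. The arrays were far apart, a log2 difference of 3.14 ± 0.08 (adjusted p = 2.74e-27). Cldn7 differed by 2.72, Cldn5 by 2.33 and Tjp1 (1372473_at) by 1.36, all higher with more lung. Cldn2 went the other way, at 3.97, 4.02 and 4.18 against 8.02, 7.97 and 7.93, and Cldn1 (1396150_at) with it, by -2.66. Cldn3, high in both liver and lung, did not pass, at 8.18, 8.09 and 8.20 against 8.20, 8.18 and 8.10 (adjusted p = 0.978). Cldn11 (1376711_at), whose brain share was equal in the pair, differed by 0.04 ± 0.07 (adjusted p = 0.645), although 1369609_at was called lower in 5/25/70 by -0.46. With repeated quantile normalization the difference of 1376711_at was called, at 0.21.

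When liver was exchanged for brain (70/25/5 against 25/70/5), 15 probe sets were called (53% of all), 11 of them higher in 70/25/5 (22.1% of all) and 4 lower (30.9%). Cldn2 was higher by 1.86 ± 0.08, Cldn1 (1396150_at) by 1.65 and Cldn3 by 1.49, while Cldn11 (1376711_at) was lower, at 10.76, 10.69 and 10.68 against 11.75, 11.70 and 11.69. Cldn18, at 5% lung in both mixtures, was still called higher in 70/25/5, by 0.60 (1382833_at, adjusted p = 6.03e-08). That difference was 0.16 under the control curve (adjusted p = 0.578), where those of Ocln and Tjp1 (0.16 and -0.42 on their leading probe sets) were also no longer called, and 8 of 17 passed. Cldn7, called at 0.33 (adjusted p = 0.0401), lost the call when any of 5 of the 6 arrays was left out, and with the 5th percentile subtracted or quantile normalization repeated. With the control curve its sign turned, to -0.12.

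When brain was exchanged for lung (70/5/25 against 70/25/5), 13 probe sets were called (46.8% of all), 11 of them higher in 70/5/25 (25.4% of all) and 2 lower (21.4%). Cldn18 (1382833_at) was higher by 2.06, Cldn7 by 1.86 and Cldn5 by 1.30, and Cldn11 (1376711_at) was lower, at 9.17, 9.13 and 9.06 against 10.76, 10.69 and 10.68. Cldn2, at 70% liver in both, differed by 0.07 ± 0.08 (adjusted p = 0.453). Cldn1 (1396150_at) was called at 0.23 and lost the call without either of 2 of the 6 arrays. Cldn4 was called at 0.28 and lost it without any of 4 of them, with quantile normalization repeated, and with the 5th percentile subtracted. With the control curve neither was called, nor were Cldn3 at 0.45 and Ocln (1378753_at) at 0.63.

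The lowest lung shares were separated by Cldn18. Between 60/35/5 and 65/34/1, where lung fell from 5% to 1%, 5 of 17 probe sets were called (2.5% of all), all higher at 5% (2.21% of all) and 0 lower (0.287%). The Cldn18 leading probe set measured 7.29, 7.41 and 7.53 at 5% and 5.57, 5.37 and 5.37 at 1%, without overlap. The difference was 1.97 ± 0.08 (adjusted p = 2.73e-19), and the other Cldn18 probe sets gave 1.97 and 1.57. Without any 1 array of the pair 1382833_at kept a difference of 1.91 to 2.04. Cldn5 measured 8.84, 8.86 and 8.85 against 8.22, 8.34 and 8.25, higher by 0.57 (adjusted p = 2.94e-08). With the control curve Cldn5 was no longer called (0.15, adjusted p = 0.547). The bioB control, which that curve passes through, averaged 8.30 in 60/35/5, with 1 array at 9.35, and 7.88 in 65/34/1. The part of that array in the changes under the curve was not tested. Tjp1 (1372473_at) passed at 0.20 (adjusted p = 0.0168) but not when any of 4 of the 6 arrays was left out, and not when fitted on these arrays alone (adjusted p = 0.298), and with the control curve its sign turned, to -0.21. Cldn7 and Cldn4, the dimmer lung claudins, were not called (adjusted p = 0.292 and 0.959). At 1% lung the Cldn18 level of 5.44 ± 0.12 (SD, n = 3) lay above the 4.56 that its liver and brain shares alone would give and below the 5.65 with the lung share added.

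**Figure D3:**
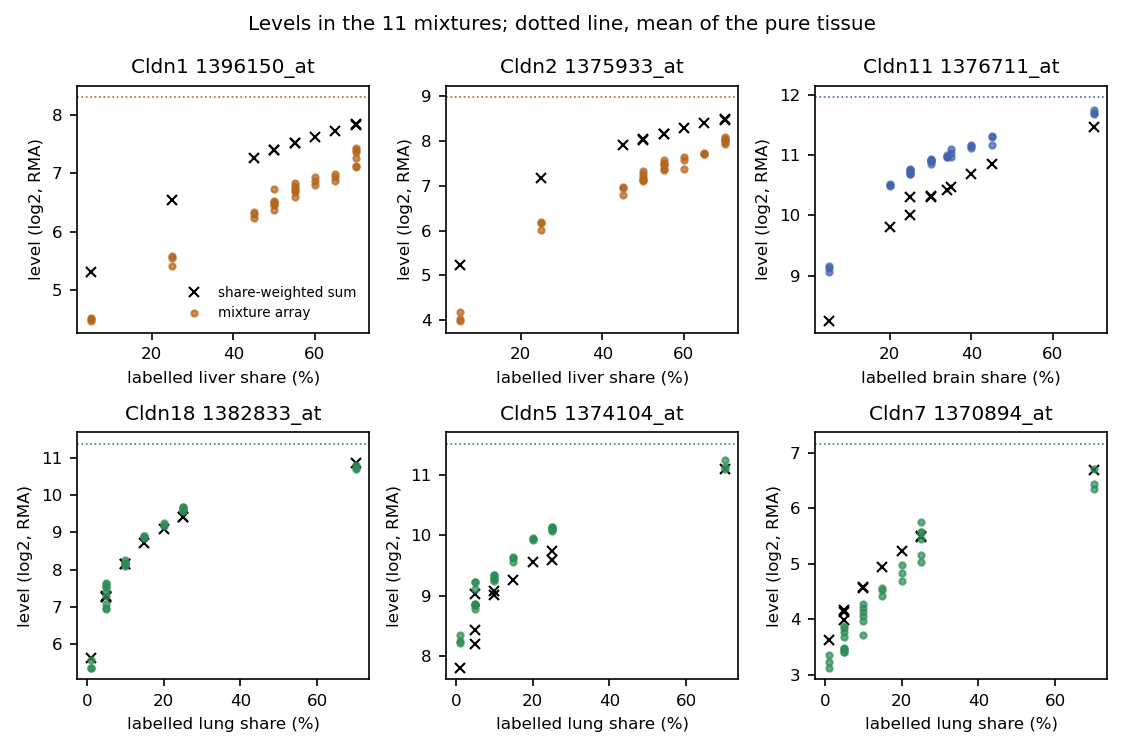
Log2 levels of 6 genes on the 33 mixture arrays (points) against the labelled share of the tissue where each is highest, with crosses at the share-weighted sum of the pure means and a dotted line at the pure level. Cldn1 and Cldn2 points lie below their crosses in all 11 mixtures, Cldn11 and Cldn5 points above, and Cldn18 points on both sides.

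Level by level, members departed from linear mixing by different amounts. The departure is the observed log2 level minus the log2 of the share-weighted sum of pure levels on the linear scale, averaged over 11 mixtures. Both liver claudins fell short: Cldn1 by -0.80 ± 0.05 (SE, 1396150_at, adjusted p = 8.98e-15), -1.11 ± 0.09 and -1.03 ± 0.11, and Cldn2 by -0.79 ± 0.05 (adjusted p = 2.31e-14). Each of these 4 probe sets was below the sum in 11 of 11 mixtures. They were the only 4 of 17 past 1.5-fold, all below, where 5.17% of all probe sets passed (4.84% below and 0.325% above). The 2 Cldn11 probe sets were above the sum in 11 of 11 mixtures, by 0.56 ± 0.05 and 0.47 ± 0.05, and Cldn5 likewise by 0.35 ± 0.03, short of 1.5-fold. Cldn18 was near the sum on its 3 probe sets, at 0.06, 0.13 and 0.08 (adjusted p = 0.330, 0.0692 and 0.246), above it in 7 mixtures and below in 4.

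Departures differed by tissue over all probe sets too. The median departure was -0.52 over liver-enriched, 0.13 over brain-enriched and -0.24 over lung-enriched probe sets, and -0.22 over all. Of liver-enriched probe sets 39.7% were called below the sum, of lung-enriched 2.77%, and of brain-enriched 0%. With the control curve none of the 17 was called, with Cldn1 at -0.29, -0.58 and -0.49 and Cldn2 at -0.33. With the overall median subtracted, Cldn1 on 1396150_at (-0.58) and Cldn2 (-0.57) were under 1.5-fold, and the Cldn11 probe sets were called above at 0.78 and 0.69. Without the mixture 25/70/5 Cldn11 on 1376711_at also passed, at 0.59.

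Most of the remaining probe sets were below the sum without reaching 1.5-fold, with Cldn3 at -0.51, Cldn4 at -0.39, Cldn7 at -0.37 and Ocln at -0.32 and -0.46. Tjp1 was at 0.03 on 1372473_at and -0.47 on 1395337_at. Array centring brought Cldn3 (-0.72), Ocln on 1398281_at (-0.64) and Tjp1 on 1395337_at (-0.61) past 1.5-fold. Subtracting the 5th percentile did so for Cldn4 (-0.83), Cldn7 (-0.67) and Tjp1 on 1395337_at (-0.62). The dim Tjp1 probe set had a mean under its lowest pure tissue in 8 of 11 mixtures, which no weighted sum of pure levels can give, and Cldn4 in 4. In all, 20.9% of probe sets were under the lowest pure mean in 6 or more mixtures.

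**Figure D4:**
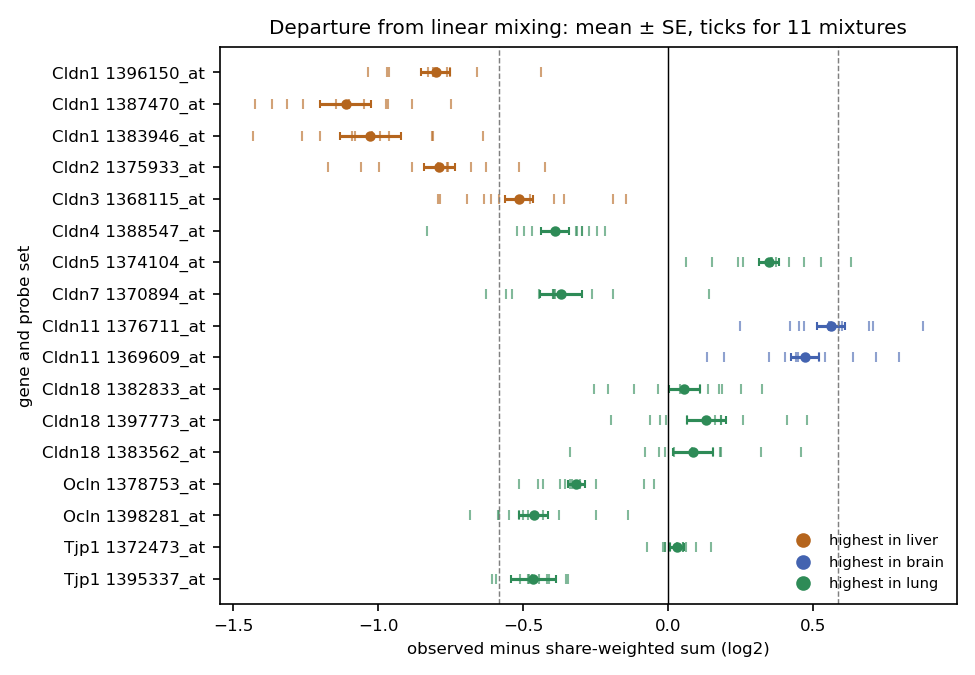
Observed minus share-weighted level (log2) for the 17 probe sets, as the mean over 11 mixtures ± SE with a tick per mixture, coloured by highest pure tissue, with dashed lines at 1.5-fold. The 3 Cldn1 probe sets and Cldn2 lie past the left line, and both Cldn11 probe sets lie right of 0 in every mixture.

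The tissue order of the members was also read from mixtures alone, by regressing the 11 mixture means on the labelled shares on the linear scale. All 17 probe sets were called in at least 1 contrast between tissue coefficients, against 81.4% of all. By contrast, 13 were called between liver and brain (60.8% of all), 15 between liver and lung (59.9%) and 16 between brain and lung (60.6%). The highest coefficient belonged to the highest pure tissue for 16 of 17, against 87.9% of all. The exception was Cldn3, with coefficients of 406 for lung and 377 for liver (adjusted p = 0.422 for their difference). Cldn18 (1382833_at) had a lung coefficient of 2551, near its pure lung level of 2654. Its other coefficients were far from the pure levels, at 198 for liver against 25.9 and -132 for brain against 19.9. Liver and brain were called different there (adjusted p = 0.00271), although not at 2-fold on pure arrays. Brain coefficients were also negative for Cldn1, Cldn2, Cldn3 and Cldn7, which no level can be. Cldn1 (1396150_at) had a liver coefficient of 208 against a pure level of 314. Cldn5 had a liver coefficient of 333, although pure liver stood at 19.8, and a brain coefficient of 399, so the 26.9-fold difference of brain over liver on pure arrays was not seen here (adjusted p = 0.577). Cldn11 (1376711_at) likewise had a liver coefficient of 565 against 13.7 in pure liver.

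A tissue's share was then read from single members at least 4-fold enriched, as the level left after the other tissues' labelled shares, over the pure level. Cldn18 (1382833_at) read 0.743% ± 0.13 (SD, n = 3) lung where the label gave 1%, 4.06%, 5.59% and 6.47% in the mixtures with 5%, and 64.6% ± 2.64 at 70%. Its mean error over 11 mixtures was 0.68 percentage points, too high in 7 and too low in 4, and 1.93 points without regard to sign. The other Cldn18 probe sets were off by 1.95 and 1.36 points on average, by 2.23 and 2.26 without regard to sign, and by up to 10.0 and 9.81 points in a single mixture. Cldn5 read lung too high in all 11, by 5.23 points on average, and Cldn7 too low in 10, by 4.11 points. Cldn11 (1376711_at) overstated brain in all 11, by 14.4 points, reading 11.4% at 5% and 83.3% at 70%. The second Cldn11 probe set (1369609_at) overstated it in all 11 too, by 13.7 points, and by up to 24.3 in a single mixture. Cldn1 (1396150_at) and Cldn2 understated liver in all 11, by 22.0 and 20.1 points, and Cldn2 read 48.6% and 52.0% where the label gave 70%. Cldn1 on 1387470_at and 1383946_at understated liver more, by 27.7 and 25.8 points. These errors use the same arrays as the departures and are another view of them.

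**Figure D5:**
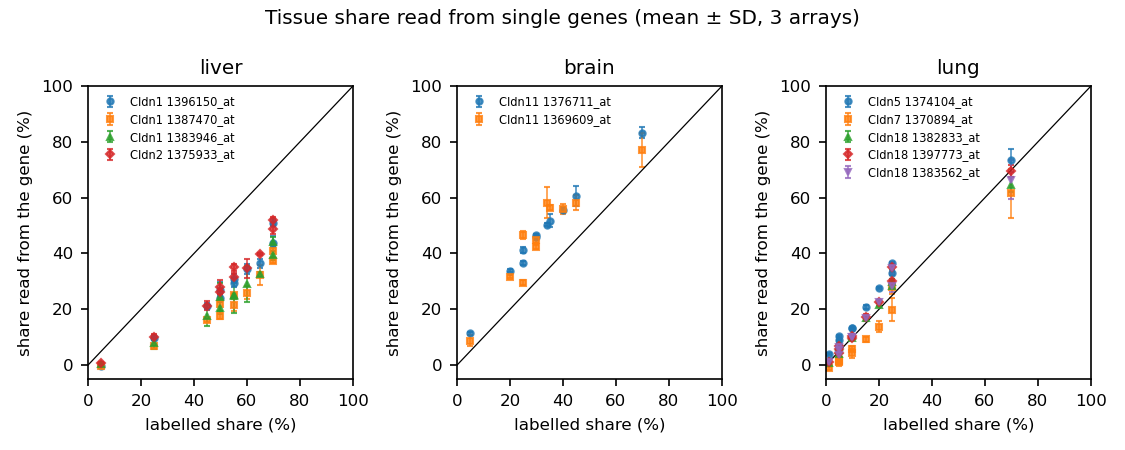
Share read from each single gene (mean ± SD, 3 arrays) against the labelled share, by tissue, with the line of equality. Cldn1 and Cldn2 lie below the line in liver, Cldn11 above it in brain, and Cldn18 along it in lung up to 20%. In 70/5/25, at 25% lung, Cldn18 reads 29.9% on 1382833_at, 35.0% on 1397773_at and 34.8% on 1383562_at. At 70% these probe sets read 64.6%, 69.6% and 66.5%.

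Finally, the genes nearest to each enriched member in pattern were found as those with the smallest root mean square difference of centred log2 means over the 14 groups. They are descriptions of likeness in these samples, which share the tissues and mixing shares. The difference is not scaled to a gene's range over the groups, so its size cannot be compared between members. Cldn1 was nearest to Nr1i2, the pregnane X receptor gene (0.093), Tsku and Ces2c, and Cldn2 to Acot4 (0.095), Aldh1b1 and Dao. Cldn18 was nearest to Emp2 (0.076), Gprc5a and S100a6. Cldn7 was nearest to Mab21l4 (0.091), Itga8 and Eps8l1, and Cldn4 to Cd2 (0.098), Mns1 and LOC102548205. Tjp1 was nearest to Mal2 (0.050), the junction gene Jam2 (0.058) and Fgfr3. Cldn5 had no gene closer than Limch1 at 0.18, followed by Sema3e and Cd9 at 0.31 each, and Cldn11 none closer than Olfm1 at 0.13, followed by the glial glutamate transporter gene Slc1a3 and Map1b.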

How the data were processed

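The authors deposited 1 log2 level per probe set and array, made with RMA per the labels and per the submitters' processing notes. No version of RMA was found in those sources. RMA makes arrays alike in their distribution of values, so tissues whose RNA is spread differently over genes may be scaled unevenly, which touches every departure from linear mixing. Groups came from the labelled percentages.

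Of 31099 probe sets 57 controls were left out. The platform annotation paired 20826 probe sets with 1 gene and 436 with several, and it listed none for 9780. All 17 member probe sets matched a RefSeq gene. A single limma 3.58.1 model (R 4.3.3) over 42 arrays with a mean per group (28 residual degrees of freedom, prior 4.56) gave the tests, except those of the mixtures-only regression. That regression was a separate limma fit of the 11 linear-scale mixture means on the labelled shares, without an intercept and with a variance trend. All tests were adjusted by Benjamini-Hochberg over 31042 probe sets. Calls needed an adjusted p under 0.05, with 2-fold between pure tissues and 1.5-fold for departures. The departure's standard error came from the delta method. The steps were tested on simulated data with independent noise, whose mixtures followed the share-weighted sum apart from changes put in. Real mixtures departed from that sum, so the simulation does not cover this feature of the data.

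Members, lists and markers were chosen with earlier results of these data known. The text covers every member, up to 4 called genes per list by lead, and 3 nearest genes per enriched member. Lsr, the fifth called gene of its list, was added after its values were seen, as were genes named in captions. Promoters are RefSeq's, on GRCr8. Figures were drawn with matplotlib 3.10.9. Alternatives were array centring, repeated quantile normalization, a curve through hybridisation controls, a filter on dim probe sets, subtraction of the 5th percentile, 1 probe set per gene, a variance trend, fewer arrays in the fit, log2-scale mixing, and leaving out arrays or mixtures. A protein comparison was planned and not run.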

Additional observations from a re-analysis of the deposited data

How the results depend on the processing

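The signs of the 7 named comparisons and departures mostly held. Among values of members and named genes, alternatives other than leaving out an array kept direction and call 895 times, against 22 changes of sign, 24 lost and 20 gained calls and 2 moved list counts. Those 895 include a variance trend, a filter on dim probe sets, 1 probe set per gene and fewer arrays in the fit. Such settings leave the group means as they are, so under them only a call can change and not a sign. For counts of members called, 79 stayed within 1.5 times and 13 did not. Leaving out an array changed the sign of 8 values, lost 15 calls, gained 1 and kept 1281, and all 135 counts stayed within 1.5 times.

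The count of departures from linear mixing was 7 with array centring, 0 with the control curve, 7 with the 5th percentile subtracted and 2 with 1 probe set per gene. With 1 probe set per gene, hence of 10 members, the count was 6 for pure liver against pure brain, 9 for pure brain against pure lung, 9 for 70/25/5 against 25/70/5, 8 for 5/25/70 against 70/25/5, 3 for 60/35/5 against 65/34/1, 8 for enrichment in a tissue and 10 for the mixtures-only regression. The control curve gave 8 for 70/25/5 against 25/70/5 and 3 for 60/35/5 against 65/34/1.

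Signs turned as follows, and apart from the fewer genes above the cause was not tested. With array centring Cldn11 1376711_at in 5/25/70 against 70/25/5 was -0.048 and the Tjp1 1372473_at departure -0.079. With repeated quantile normalization Cldn4 was -0.035 in 70/25/5 against 25/70/5 and Cldn3 0.0011 in 60/35/5 against 65/34/1. Under the control curve Cldn4 was -0.43 and Cldn7 -0.12 in 70/25/5 against 25/70/5, Cldn3 was 0.45 in 5/25/70 against 70/25/5, and in 60/35/5 against 65/34/1 Cldn4 was -0.37, Cldn7 -0.077, Cldn11 -0.35, Ocln -0.30 and Tjp1 -0.21. In that last pair the 60/35/5 arrays include the 1 with bioB at 9.35. With the control curve, Cldn3 liver minus lung was -0.57 and the Cldn18 departures were -0.065, -0.0027 and -0.060. With the 5th percentile subtracted Cldn4 in 70/25/5 against 25/70/5 was -0.13. With mixing on the log2 scale the departures of Cldn1 were 0.094 and 0.20 (1396150_at and 1383946_at), of Cldn2 0.51, Cldn3 0.033 and Cldn7 0.39. Leaving out an array gave Cldn3 -0.033 to 0.031 in 5/25/70 against 70/25/5 and -0.036 to 0.0078 in 60/35/5 against 65/34/1, and Cldn4 -0.058 to 0.12 in that pair and -0.031 to 0.061 in 70/25/5 against 25/70/5.

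Only 1 animal was measured, and the dim levels of Cldn4 at 5% lung in 70/25/5 (3.38, 3.19 and 3.27) overlapped pure liver (3.44, 3.26 and 3.58). No paired analysis was possible because the labels give the arrays no numbers that link groups.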
